A study of Mus musculus with 8 samples.

Results

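Non-hypertrophic Serpina1-negative chondrocytes were cartilage cells of the mouse femur that carried aggrecan-type matrix transcripts but little Col10a1, Ihh, cell cycle or Serpina1 RNA. They were chosen by measured values in single-cell RNA sequencing libraries. A cell was a member when Acan, Hapln1 and Matn3 together made up at least 40 per 10000 of its unique molecular identifiers (UMIs, each standing for 1 captured transcript), Col10a1 stayed under 10 per 10000, Ihh was at most 1 UMI, Top2a with Mki67 at most 2 UMIs, and Serpina1a to Serpina1d together at most 2 UMIs. Of 45328 cells that passed the filters, 4911 were members, and 14577 cells passed the matrix limit alone, which is called the cartilage gate below. Both groups were C57BL/6 wild-type females of 12 weeks. In the Fracture group the left leg had been broken by bending at 10 weeks of age and fixed with an intramedullary nail, and femurs were taken at day 14. These mice also received ketamine and xylazine as anaesthesia and the pain drug carprofen afterwards. In the Control group the bone was unfractured and no nail had been placed, and the published methods describe no such drugs for it. The break, the nail and the drugs therefore cannot be told apart. Each group held 2 cell preparations (Control 1 and 2, Fracture 1 and 2) with 2 droplet libraries each, and blood cells had been depleted from all of them.

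Chondrocytes of a growth plate pass from a resting reserve through flat dividing cells to enlarged hypertrophic cells, which make collagen X and are then replaced by bone. PTHrP from resting cells and Indian hedgehog (Ihh) from prehypertrophic cells set the pace of that passage. A fracture callus builds cartilage anew from cells of the periosteum, runs the same sequence and turns into bone, while articular chondrocytes stay unmineralised and secrete lubricin (Prg4) at the joint surface.

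The libraries held 56543151 to 89126291 UMIs, and members had a median of 11830 and 13905 UMIs per cell in Control and of 11437 and 12179 in Fracture. Control members reached lower, with a 10th percentile of 2589 UMIs against 7241 in Fracture. Under 5000 UMIs were 114 Control and 34 Fracture members. The Serpina1, Ihh and cell cycle limits count UMIs, so a shallow cell meets them more easily. The members came to 400 and 78 cells in Control and to 2136 and 2297 in Fracture, so Control 2 carries the widest counting error. Library pairs shared at most 23 barcodes among all kept cells, and 1 barcode in total among members. The table of Control 1 lists 0 of the 290 genes whose symbols begin with U, against 281 to 283 in the other preparations, and those genes, among them the cartilage gene Ucma, were not analysed here. The label was checked with Col2a1, the main cartilage collagen, which the rule did not use. Its median per member was 664 and 599 per 10000 UMIs in Control and 674 and 682 in Fracture. A smaller number of members had Col2a1 under 100 per 10000 or passed a limit for RNA of another cell type. They were 124 of 478 Control members (25.9%) and 445 of 4433 Fracture members (10.0%). In Control 63 of them held platelet and megakaryocyte RNA and 41 had low Col2a1, whereas in Fracture 182 held osteoblast RNA and 165 had low Col2a1. The 63 had a median Col2a1 of 658 per 10000, as had all Control members, but a median of 3076 UMIs against 12347.5. A shallow cell meets a limit per 10000 with fewer UMIs, so the 25.9% and 10.0% can also depend on depth. These limits were set after the data were seen, and results named here that lost their call or moved by over 1.5 times on the log2 scale without these cells are given both ways. The name non-hypertrophic rests on the Col10a1 limit alone, since Panx3, a channel protein of prehypertrophic cells, stood at 361 and 291 CPM (UMIs of a gene per 1000000 UMIs) in Control members and at 448 and 453 CPM in Fracture members.

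Sequences are shown for the start regions of the marker C1qtnf3, which was found in most Fracture members, and of the prostaglandin enzyme gene Ptgs2, which was close to absent in Control members. Both were chosen after their values were seen. Each runs 5′ to 3′ from 250 bases before to 50 bases after the RefSeq start (GRCm38.p6, plus strand). Capitals mark TATAAA in the first and the joined matches of ACGTCA and ACGTG in the second.
C1qtnf3 (chr15:10952082-10952381): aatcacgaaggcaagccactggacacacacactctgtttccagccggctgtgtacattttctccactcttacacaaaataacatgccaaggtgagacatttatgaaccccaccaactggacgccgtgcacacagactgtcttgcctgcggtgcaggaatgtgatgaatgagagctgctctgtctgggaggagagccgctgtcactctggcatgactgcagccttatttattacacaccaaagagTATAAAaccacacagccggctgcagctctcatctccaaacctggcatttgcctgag
Ptgs2 (chr1:150099781-150100080): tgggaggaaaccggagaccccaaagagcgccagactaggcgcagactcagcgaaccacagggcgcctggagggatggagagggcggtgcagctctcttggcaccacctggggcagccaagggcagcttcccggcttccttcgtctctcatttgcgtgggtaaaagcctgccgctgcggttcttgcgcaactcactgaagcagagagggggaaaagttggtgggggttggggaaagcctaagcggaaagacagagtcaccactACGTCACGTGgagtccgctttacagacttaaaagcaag
TATAAA, the letters of a TATA box, occurred on either strand in 14.2% of 27025 RefSeq promoters of the same length. ACGTG, the core of a hypoxia response element, occurred in 19.7%, and ACGTCA, part of a cyclic AMP response element, in 7.64%. In the Ptgs2 window ACGTG was matched once on each strand, and both matches overlap each other and ACGTCA. The AP-1 motif TGANTCA and the SOX core ACAAAG were also searched, and neither was in these windows. A match describes the letters of the window.

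The first question was how much of the stroma and of the cartilage these cells made up with and without a fracture. Members were 3.14% and 0.985% of all cells in Control and 18.0% and 18.0% in Fracture. Of the cells past the cartilage gate they were 21.6% and 13.5% in Control and 35.9% and 37.0% in Fracture. Both Fracture preparations lay above both Control preparations, by 15.9 percentage points of all cells and by 18.9 points of gated cells on average. With 2 preparations against 2 the two-sided exact permutation test cannot go below p = 0.333, which both shares reached, also after adjustment over both. The denominator of all cells was not alike in the groups. Of the listed barcodes 84.5% to 86.2% passed the filters in the Control libraries and 99.3% to 99.8% in the Fracture libraries, and the 10th percentile of UMIs per kept cell was 2016.5 in Control and 6223 in Fracture. The same order held when only cells of at least 5000 UMIs were counted and each was first thinned to that number, with 6.30% and 2.23% against 21.3% and 21.2% of all cells. Of the gated cells the shares were then 31.4% and 22.8% in Control and 41.4% and 42.8% in Fracture.

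**Figure D1:**
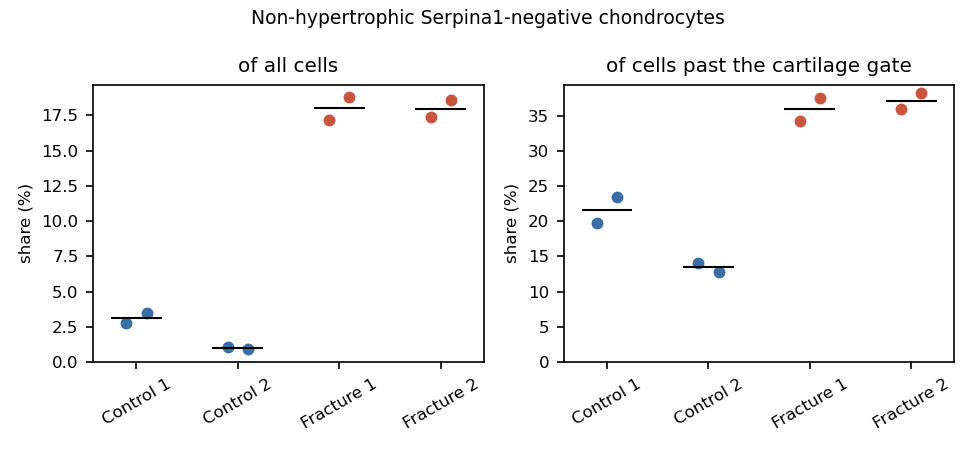
Share of members (%) among all cells (left) and among cells past the cartilage gate (right). Points are the 2 libraries of each preparation and bars the preparation with both libraries joined; every Fracture point lies above every Control point.

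The limits that removed gated cells differed between the groups. In Control 64.5% and 74.8% of the gated cells exceeded the Serpina1 limit, against 8.55% and 8.94% in Fracture. The Col10a1 limit removed 16.8% and 21.1% in Control and 43.8% and 43.1% in Fracture. A cell could fail several limits at once. At the Serpina1 limit 74 Control and 138 Fracture members held 2 UMIs, just inside, while 50 and 77 cells held 3 UMIs, just outside. Their Col2a1 was alike on both sides, with medians of 712 and 701 per 10000 in Control and 624 and 621 in Fracture. At the cartilage gate 51 Control and 251 Fracture members lay between 40 and 50 per 10000, where the median of Col2a1 was 127 and 372 per 10000. The 81 Control and 303 Fracture cells between 30 and 40 per 10000, just outside, had medians of 96.2 and 207. At the Col10a1 limit 14 of 478 Control members but 784 of 4433 Fracture members lay between 5 and 10 per 10000 of Col10a1, just inside. Between 10 and 15 per 10000, just outside, were 1 Control cell and 150 Fracture cells that met the other limits.

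The next question was how members differed between healing and unfractured bone. Fracture was compared with Control over summed UMIs per preparation with the quasi-likelihood test of edgeR and Benjamini-Hochberg adjustment over all genes. Of 14103 genes tested, 2035 were higher in Fracture (14.4%) and 1658 lower (11.8%), and the median log2 fold change was 0.01. Rises and falls below set Fracture members against Control members. A change within cells and a change in which cells met the rule cannot be told apart. Levels below are plain CPM of the summed members, and log2 fold changes come from the TMM-scaled fit. Levels in endothelial cells of the same preparations are given beside some genes. For cartilage genes, which endothelial cells should lack, they show RNA of other cells counted with a cell. Free RNA and doublets were not told apart. Cells past the cartilage gate were left out of the endothelial cells, so these levels can be too low. For other genes they are levels only.

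Of the 5 genes that mark these cells, Chrdl2, Matn4, C1qtnf3 and Sfrp5 were called higher in Fracture members and Chi3l1 lower, a count of 5 of 5 against 14.4% and 11.8% of all genes. These 5 genes had been chosen with results of these data known, so nothing is read from that count. C1qtnf3 (chr15:10952332-10980150, plus strand), which encodes a secreted protein of the C1q and TNF family made by growth cartilage, stood at 62.0 and 63.6 CPM in Control and at 1738 and 1697 CPM in Fracture. The groups lie far apart, with a log2 fold change of 4.91 (SE 0.12, adjusted p = 1.32e-07). Chrdl2 (chr7:100006172-100034728, plus strand), a chordin-like antagonist of bone morphogenetic proteins, stood at 1.25 and 8.29 CPM in Control and at 83.3 and 67.4 CPM in Fracture. The log2 fold change was 5.0 (SE 0.36, adjusted p = 1.57e-05). The Control level of Chrdl2 rested on 6 and 9 UMIs, and the 9 UMIs of Control 2 all lay in members with low Col2a1. Matn4 (chr2:164389393-164405160, minus strand), a matrilin that links collagen and proteoglycan, stood at 124 and 160 CPM against 641 and 583 CPM. The groups do not overlap, and the change was 2.28 on the log2 scale (SE 0.14, adjusted p = 6.09e-06). Endothelial cells held at most 41.6 CPM of Matn4 and 37.1 CPM of C1qtnf3.

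Sfrp5 and Chi3l1 moved less, and both calls depended on a setting. Sfrp5 (chr19:42197971-42202252, minus strand), a secreted inhibitor of Wnt ligands found in resting chondrocytes, stood at 72.1 and 108 CPM in Control and at 124 and 110 CPM in Fracture. Control 2 nearly reached the lower Fracture preparation, and the log2 fold change of 0.63 (SE 0.15, adjusted p = 0.0144) fell to 0.27 (adjusted p = 0.251) without Control 1, to 0.28 (adjusted p = 0.0929) without the second library of Control 1 and to 0.48 (adjusted p = 0.0758) without Fracture 1. Chi3l1, a secreted chitinase-like glycoprotein of cartilage, stood at 321 and 406 CPM in Control and at 127 and 141 CPM in Fracture. Its log2 fold change was -1.28 (SE 0.12, adjusted p = 9.37e-05), but with the cartilage gate raised to 60 per 10000 it was -0.20 (adjusted p = 0.198). With the members of low Col2a1 or other RNA left out, the log2 fold changes were 6.30 for Chrdl2, 4.75 for C1qtnf3, 2.26 for Matn4, 1.06 for Sfrp5 and -0.96 for Chi3l1, all called. With the cartilage gate at 60 per 10000 the change of Sfrp5 was 1.67.

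The share of members with a UMI gave the same order for these genes once each cell was thinned to 2000 UMIs, which left out 27 Control members. C1qtnf3 was found in 9.09% and 9.09% of Control members and in 63.3% and 64.7% of Fracture members. Matn4 was found in 17.4% and 15.6% against 52.9% and 52.2%, and Sfrp5 in 9.63% and 6.49% against 14.7% and 12.8%. Chrdl2 was found in 0.535% and in 0 of 77 Control members, which allows a share of up to 3.90% at this depth, against 8.71% and 7.71% in Fracture. Before thinning, 2 of 78 members of Control 2 held a Chrdl2 UMI. Chi3l1 went the other way, with 22.5% and 22.1% in Control and 13.6% and 14.1% in Fracture. Of the endothelial cells 4.69% and 4.98% held C1qtnf3 in Fracture and 0.127% and 0.0868% in Control, at unthinned medians of 7208 and 7734 UMIs in Fracture and of 4422 and 5393 UMIs in Control. Each of these differences had an exact p of 0.333, the smallest that 2 against 2 allows, and intervals and limits here cover counting error only.

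The 3 genes listed as callus cartilage genes were all called higher. Moxd1 (chr10:24223517-24302790, plus strand), which encodes a monooxygenase-like enzyme, stood at 9.77 and 8.29 CPM in Control and at 164 and 181 CPM in Fracture, a rise of 4.32 on the log2 scale (SE 0.15, adjusted p = 2.99e-07). It was found in 1.07% and 1.30% of thinned Control members and in 22.1% and 23.5% of Fracture members. The transcript 1520401A03Rik (chr17:23704488-23722783, minus strand) was at 0.208 and 0 CPM in Control and at 171 and 137 CPM in Fracture. Its Control level rested on 1 UMI, and the ratio of 889 had a 95% counting interval of 160 to 35133. The third, C1qtnf3, is given above. This list had been taken from earlier results of these data, so its direction is not independent evidence.

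Among the largest rises were matrix genes of fibrous tissue and healing stroma. Col3a1, a fibrillar collagen of loose and healing tissue, stood at 43.7 and 29.5 CPM in Control and at 2924 and 2920 CPM in Fracture (log2 fold change 6.35, SE 0.17). Endothelial cells held 787 and 458 CPM of it in Fracture. Postn, a matricellular protein of the periosteum, stood at 7.28 and 1.84 CPM against 365 and 365 CPM, with 118 and 52.7 CPM in Fracture endothelial cells. Aspn, which encodes the small proteoglycan asporin, stood at 4.78 and 0.921 CPM against 297 and 269 CPM. Col1a1, the main collagen of bone, stood at 593 and 182 CPM against 8821 and 9075 CPM. It stood at 1849 and 1121 CPM in Control and at 7710 and 6611 CPM in Fracture endothelial cells, and the part of free RNA in its rise was not tested. Tnn, a tenascin of bone-forming tissue, and Itgbl1, a secreted integrin-like protein, had log2 fold changes of 4.46 and 4.35. Of 32 genes listed as fibrous and activated stroma matrix, 23 were called higher and 1 lower (Mgp, an inhibitor of calcification, at -0.91), with a median log2 fold change of 1.49. Without the set-aside members 22 were higher and 3 lower. Among all genes tested 14.4% were higher and 11.8% lower. Summed markers of osteoblasts were 4298 and 3295 CPM in Control members and 5217 and 5321 CPM in Fracture members, and their part in these rises was not tested. Ibsp, also listed as a hypertrophy gene, made up most of that sum in each preparation, so the sum is not read as a rise of osteoblast RNA. The log2 fold change of Ibsp, 0.91, was 0.48 without the first library of Control 2 and 1.38 without the second. Members with osteoblast RNA held 2.55% and 4.33% of the Fracture UMIs of Ibsp. The osteoblast gene Bglap stood at 798, 916, 450 and 1132 CPM in the Control libraries and at 592, 574, 798 and 834 CPM in the Fracture libraries.

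Inflammation genes formed another group with many rises. Ptgs2 (chr1:150100031-150108227, plus strand), the inducible enzyme of prostaglandin synthesis whose promoter is shown above, was at 0.416 and 0 CPM in Control and at 82.1 and 81.8 CPM in Fracture. Its Control level rested on 2 UMIs, and the ratio of 239 had a 95% counting interval of 66.1 to 1974. Fracture endothelial cells held 12.1 and 10.5 CPM. Mt1, a metallothionein that binds zinc, stood at 22.5 and 4.61 CPM against 560 and 728 CPM (log2 fold change 5.29, SE 0.31), and H2-Ab1, a chain of class II histocompatibility molecules, at 5.41 and 6.45 CPM against 151 and 149 CPM. Of 27 acute phase, complement and inflammation genes, 17 were called higher and 5 lower, with a median log2 fold change of 0.92. The shares of all genes were 14.4% and 11.8%, and the counts without the set-aside members were 15 and 4 of 25 tested. Lcn2, an iron-carrier binding protein, had 1.46 and 0 CPM against 34.1 and 23.1 CPM. Saa3, an acute phase protein, had 0 Control UMIs and was at least 10.4-fold higher against a floor of 3 UMIs over the group, but was not called without Control 1 (adjusted p = 0.0683). Nos2, the inducible nitric oxide synthase, had 0 Control UMIs and stood at 1.03, 1.29, 5.05 and 0.142 CPM in the Fracture libraries, so its level rested on 1 library. Its call (adjusted p = 0.0449) was lost without Control 1 (0.323), without either library of Control 1 (0.0946 and 0.128), without the second library of Fracture 2 (0.096) and without the set-aside members (0.0581). The 5 called lower were Ptgds, Il1rn, Il6, Serpina3g and C4b. The log2 fold change of Il6, -2.40, was -0.65 (adjusted p = 0.321) without the set-aside members, and that of Il1rn, -2.45, was -1.78 (adjusted p = 0.0927) without the first library of Control 1. Of 19 interferon-stimulated genes 7 were higher and 0 lower, beside the same shares of all genes, and 7 and 0 of 17 tested without the set-aside members. Among the higher was Irf1, a transcription factor, at 15.4 and 11.1 CPM against 52.4 and 52.2 CPM.

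The falls included genes of joint and resting cartilage beside genes of blood cells. Cytl1, a cytokine-like protein made by chondrocytes, stood at 1572 and 1210 CPM in Control and at 92.7 and 81.2 CPM in Fracture, with a log2 fold change of -3.87 (SE 0.15, adjusted p = 4.77e-07). Hhip, which binds hedgehog ligands outside the cell, stood at 91.5 and 101 CPM against 9.52 and 8.78 CPM (log2 fold change -3.23, SE 0.10). Apoe, a lipid carrier, stood at 693 and 1276 CPM against 66.7 and 68.8 CPM, while endothelial cells held 941 and 1260 CPM in Control and 271 and 274 CPM in Fracture. The basophil proteases Mcpt8 and Prss34, the granule protease Ctsg, the myeloid gene Plac8 and the platelet chemokines Pf4 and Ppbp also fell, by 3.99 to 6.59 on the log2 scale. Endothelial cells of Control 1 held each of these 6 genes above its level in the members (2907 against 348 CPM for Pf4 and 282 against 269 CPM for Mcpt8). In Control 2 they held Pf4, Ppbp and Ctsg above the members, but Mcpt8 (116 against 158 CPM), Prss34 (173 against 236 CPM) and Plac8 (31.7 against 76.5 CPM) below them. These 3 levels of Control 2 members rested on 1 member with basophil RNA, which held 85.5% to 93.4% of their UMIs, and the second library of Control 2 held 22.4, 8.13 and 8.13 CPM. In Control 1 the 5 members with basophil RNA held 81.3% of the Mcpt8, 79.4% of the Prss34, 79.3% of the Ctsg and 64.1% of the Plac8 UMIs. The 61 members of Control 1 with platelet RNA held 72% of the Pf4 and 61.7% of the Ppbp UMIs. Basophil RNA was defined by Mcpt8 and Prss34, so the shares of these 2 genes in those members follow in part from the limit. The same holds for Pf4 and Ppbp and the platelet limit. The log2 fold change of Plac8, -4.51, was -2.88 without the set-aside members. Without Control 1, Pf4 and Ppbp were not called (log2 fold changes of -1.54 and -1.06, adjusted p = 0.0753 and 0.259). They are genes of blood cells, which the depletion was meant to remove, and the share of their fall that is free RNA was not tested.

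Prg4 and Cilp, genes of the joint surface and of the middle articular zone, fell by a large amount but through few cells. Prg4 (chr1:150449412-150466165, minus strand) stood at 1018 and 813 CPM in Control and at 24.8 and 32.2 CPM in Fracture, with a log2 fold change of -4.88 (SE 0.17, adjusted p = 2.99e-07). In Control 89.9% and 98.9% of its UMIs lay in the set-aside members, nearly all in those of low Col2a1, and the top 5% of members (20 and 4 cells) held 99.3% and 98.8%. Without the set-aside members the log2 fold change was -2.06 (adjusted p = 0.00225). Cilp stood at 601 and 558 CPM against 57.8 and 61.6 CPM (log2 fold change -3.15), and without those members it was -1.08 (adjusted p = 0.0557). Npy, a neuropeptide, stood at 119 and 250 CPM in Control, from 6 cells and 1 cell, and at 3.17 and 2.09 CPM in Fracture. Its log2 fold change of -5.81 turned to 2.58 (adjusted p = 0.072) without the set-aside members. Cytl1 and Hhip kept log2 fold changes of -3.60 and -3.35 without them. The Control 2 levels of the first 3 genes also rested on 1 library. Prg4 stood at 829 and 1160 CPM in the libraries of Control 1 but at 1470 and 20.3 CPM in those of Control 2, and the last value lies within the Fracture libraries (19.8 to 40.3 CPM). Cilp was at 1011 and 12.2 CPM and Npy at 457 and 0 CPM in the libraries of Control 2, which held 43 and 35 members. Without the first library of Control 2 the log2 fold changes were -4.26 for Prg4, -2.54 for Cilp and -5.15 for Npy (adjusted p = 0.00316, 0.0138 and 1.68e-05).

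**Figure D2:**
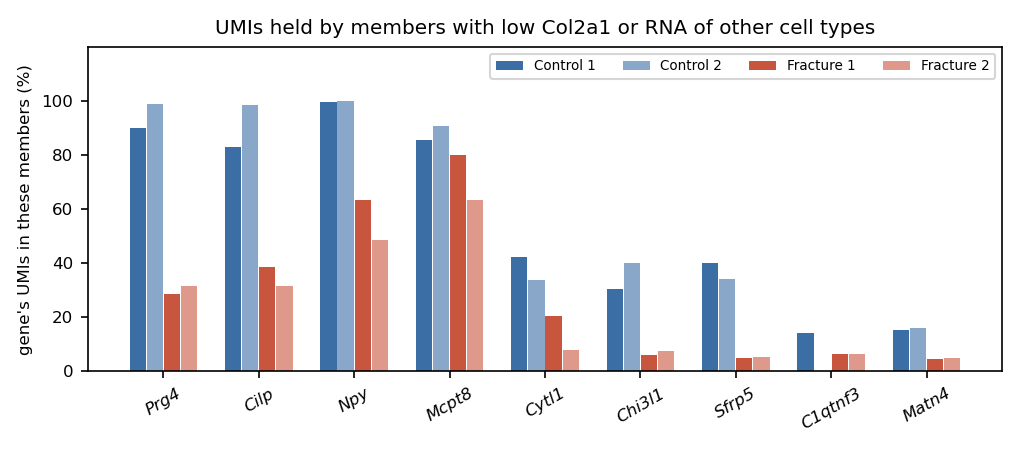
Share (%) of each gene's UMIs that lay in members of low Col2a1 or with RNA of other cell types, by preparation. Prg4, Cilp, Npy and Mcpt8 exceed 80% in both Control preparations, whereas C1qtnf3 and Matn4 stay under 20% in all preparations. Mcpt8 is a gene of the basophil limit, so its share follows in part from that limit.

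The gene groups of chondrocyte zones moved unevenly. Counts of these and the later lists stand beside 14.4% higher and 11.8% lower among all genes. Of 25 cartilage matrix genes tested, 8 were called higher and 7 lower, with a median log2 fold change of 0.13. The counts without the set-aside members were 4 and 8 of 24 tested. Col2a1 stood at 65677 and 61636 CPM in Control and at 68531 and 69560 CPM in Fracture and did not pass the test (log2 fold change 0.25, adjusted p = 0.126). Chad, an integrin-binding protein of cartilage, stood at 4113 and 3946 CPM against 1082 and 1111 CPM (log2 fold change -1.74), and Vit, the matrix protein vitrin, at 210 and 227 CPM against 61.8 and 57.6 CPM. Of 21 articular and superficial zone genes, 4 were higher (Chrdl2, Dkk3, Erg and Sfrp5) and 11 lower, with a median of -0.68. Without the set-aside members the counts were 6 and 6, and the log2 fold change of Erg went from 1.17 to 2.04. Clu, the chaperone clusterin, stood at 547 and 440 CPM against 78.8 and 61.3 CPM.

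Of 14 genes of the resting zone of the growth plate, 3 were higher (Cd200, Grem1 and Sfrp5) and 8 lower, with a median log2 fold change of -1.24. Pthlh, which encodes PTHrP, stood at 32.0 and 68.2 CPM in Control and at 6.19 and 6.76 CPM in Fracture, where endothelial cells held 7.38 and 4.84 CPM. Its log2 fold change of -2.52 was -1.04 (adjusted p = 0.00956) without the set-aside members, and the libraries of Control 2 held 118 and 8.13 CPM. Wif1, a secreted Wnt inhibitor, stood at 576 and 785 CPM against 124 and 117 CPM, and its log2 fold change of -2.35 was -2.23 without the set-aside members. Gas1, a hedgehog co-receptor, had a log2 fold change of -2.04, which was -0.68 (adjusted p = 0.0648) without those members. Of 20 hypertrophy genes, 8 were higher and 3 lower, with a median of 0.19. Mmp13, the collagenase of late cartilage, stood at 27.0 and 25.8 CPM against 133 and 129 CPM, below the 380 and 358 CPM of Fracture endothelial cells. Vegfa, which draws vessels into cartilage, stood at 30.4 and 43.3 CPM against 86.1 and 90.7 CPM, where endothelial cells held 24.2 and 19.5 CPM. Cdkn1a, an inhibitor of the cell cycle, stood at 97.1 and 81.1 CPM against 370 and 363 CPM. Pth1r, the receptor for PTHrP, stood at 2005 and 1895 CPM against 1567 and 1467 CPM (adjusted p = 0.133).

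Of 26 chondrocyte transcription factors, 9 were higher and 5 lower. Sox9, the master regulator of cartilage, stood at 1116 and 1089 CPM in Control and at 842 and 844 CPM in Fracture and missed the threshold (log2 fold change -0.25, adjusted p = 0.085), which it passed without the set-aside members (-0.34, adjusted p = 0.0406). Its partner Sox5 fell, from 213 and 239 CPM to 110 and 119 CPM (log2 fold change -0.83). Runx3, which promotes chondrocyte maturation, had a log2 fold change of -1.29. Foxa2, a factor of hypertrophic differentiation, stood at 34.9 and 13.8 CPM against 10.5 and 9.72 CPM, and its log2 fold change of -1.44 was -0.29 (adjusted p = 0.676) without Control 1. Nfatc2, a calcium-regulated factor, rose from 23.9 and 26.7 CPM to 99.2 and 99.5 CPM, and Scx, the tendon factor scleraxis, from 8.73 and 5.53 CPM to 17.0 and 18.1 CPM. The tendon gene Tnmd, which encodes tenomodulin, was at 0 CPM in both Control preparations and at 35.3 and 34.8 CPM in Fracture, at least 68.1-fold higher against the floor of 3 UMIs. Endothelial cells held 1.90 and 2.12 CPM of Tnmd in Fracture.

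Signalling genes moved in both directions. Of 32 genes of the BMP pathway, 11 were higher and 6 lower, with a median log2 fold change of 0.29. The ligand gene Bmp7 stood at 72.8 and 68.2 CPM in Control and at 12.5 and 12.3 CPM in Fracture. Among the antagonists, Chrdl2 rose as given above and Bmper, a BMP-binding regulator, rose from 3.74 and 1.84 CPM to 25.3 and 21.3 CPM. The target genes Id3 and Smad7 had log2 fold changes of 1.45 and 1.49. Of 24 Wnt antagonists and targets, 6 were higher and 7 lower. The Wnt antagonist Frzb stood at 79.6 and 65.4 CPM against 333 and 303 CPM, opposite to Wif1. Of 13 hedgehog and PTHrP genes, 2 were higher, near the 14.4% of all genes, and 5 lower, against 11.8% of all genes. The falls of Hhip, Pthlh and Gas1 are given above. The counts without the set-aside members were 2 and 3 of 12 tested.

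Of 22 TGF-beta pathway genes, 7 were higher and 3 lower, with a median log2 fold change of 0.07. The lower count is near the 11.8% of all genes. Ltbp4, which anchors latent TGF-beta in the matrix, stood at 6.65 and 3.69 CPM in Control and at 40.6 and 36.7 CPM in Fracture. The co-receptor gene Tgfbr3 stood at 97.7 and 111 CPM against 29.1 and 31.1 CPM. Of 19 FGF and IGF genes, 7 were higher and 3 lower, the latter again near the share of all genes. Igf1, the growth factor of longitudinal bone growth, stood at 16.8 and 24.0 CPM against 96.9 and 84.3 CPM, and Fracture endothelial cells held 75.1 and 72.4 CPM. The imprinted RNA H19 stood at 86.9 and 149 CPM against 493 and 537 CPM, with at most 12.1 CPM in endothelial cells. Fgf1, a growth factor, stood at 20.4 and 15.7 CPM against 3.87 and 3.50 CPM.

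Enzymes that crosslink and fold collagen rose in most cases. Of 16 collagen crosslinking and folding genes, 15 were called higher and 0 lower, and the 1 gene that missed the threshold was Serpinh1, the collagen chaperone. Lox, a lysyl oxidase that crosslinks collagen, stood at 18.5 and 24.9 CPM in Control and at 192 and 192 CPM in Fracture (log2 fold change 3.40, SE 0.13), with 95.6 and 80.8 CPM in Fracture endothelial cells. Plod1, a lysyl hydroxylase, stood at 61.5 and 73.7 CPM against 204 and 195 CPM. Without the set-aside members 13 of the 16 were called higher. Of 25 matrix proteases and inhibitors, 13 were higher and 1 lower, with a median log2 fold change of 0.73. Mmp2, a gelatinase, stood at 81.7 and 78.3 CPM against 334 and 329 CPM, and Timp1, an inhibitor of these proteases, at 474 and 346 CPM against 784 and 727 CPM. Of 27 sulphate and glycosaminoglycan synthesis genes, 7 were higher and 5 lower, with a median of 0.12. Chsy1, a chondroitin synthase, stood at 33.5 and 33.2 CPM against 92.8 and 90.5 CPM, whereas Chst3, a chondroitin sulphotransferase, fell by 1.32 on the log2 scale and was not called without Control 1 (adjusted p = 0.106).

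Genes of glycolysis and of the hypoxia response were mostly higher in Fracture members. Of 28 tested, 22 were called higher and 1 lower, with a median log2 fold change of 1.03. Gapdh, a glycolytic enzyme, stood at 472 and 605 CPM in Control and at 1106 and 973 CPM in Fracture, and Ldha, which makes lactate, at 624 and 808 CPM against 1201 and 1135 CPM. Slc16a3, a lactate exporter, stood at 21.4 and 35.9 CPM against 110 and 103 CPM. Bnip3, a mitophagy receptor induced in hypoxia, stood at 39.9 and 53.4 CPM against 152 and 149 CPM. The 1 gene called lower was Slc2a3, a glucose transporter, at 26.6 and 7.37 CPM against 6.31 and 6.39 CPM. Its log2 fold change of -1.67 was -0.82 (adjusted p = 0.0623) without the set-aside members and -0.58 (adjusted p = 0.145) without the first library of Control 1. Of the 22 called higher, 21 had a promoter in the RefSeq table, and 13 of these (61.9%) held ACGTG, the letters in capitals in the Ptgs2 window above, against 19.7% of the promoters searched. The list was made of genes of the hypoxia response, and the 22 genes were picked from it by their call. Its genes that were not called were not searched for contrast, and the share is a description with no test.

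Of 25 genes of folding and secretion in the endoplasmic reticulum, 8 were higher and 3 lower, with a median log2 fold change of 0.20. Trib3, a stress-induced pseudokinase, stood at 0.624 and 1.84 CPM in Control and at 10.9 and 9.92 CPM in Fracture, and Hyou1, a chaperone, at 24.5 and 29.5 CPM against 12.6 and 13.0 CPM. Of 25 immediate early genes, which respond within minutes to stimulation or to dissociation of tissue, 14 were higher and 3 lower, and all 3 lower genes encode heat shock proteins (Hspa1a, Hspa1b and Hsph1). Hspa1a, with a log2 fold change of -0.48, was at -0.25 (adjusted p = 0.444) without the first library of Control 2. Ier3 stood at 135 and 71.9 CPM against 411 and 379 CPM. Socs3, a brake on cytokine signalling, stood at 205 and 88.5 CPM against 401 and 360 CPM. Handling of the tissue and the fracture cannot be told apart for these genes. Of 32 cell cycle genes, whose main marks the rule had limited, 8 were higher and 4 lower, among the lower Ccnd1, a G1 cyclin, at 100 and 89.4 CPM against 35.7 and 37.9 CPM.

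**Figure D3:**
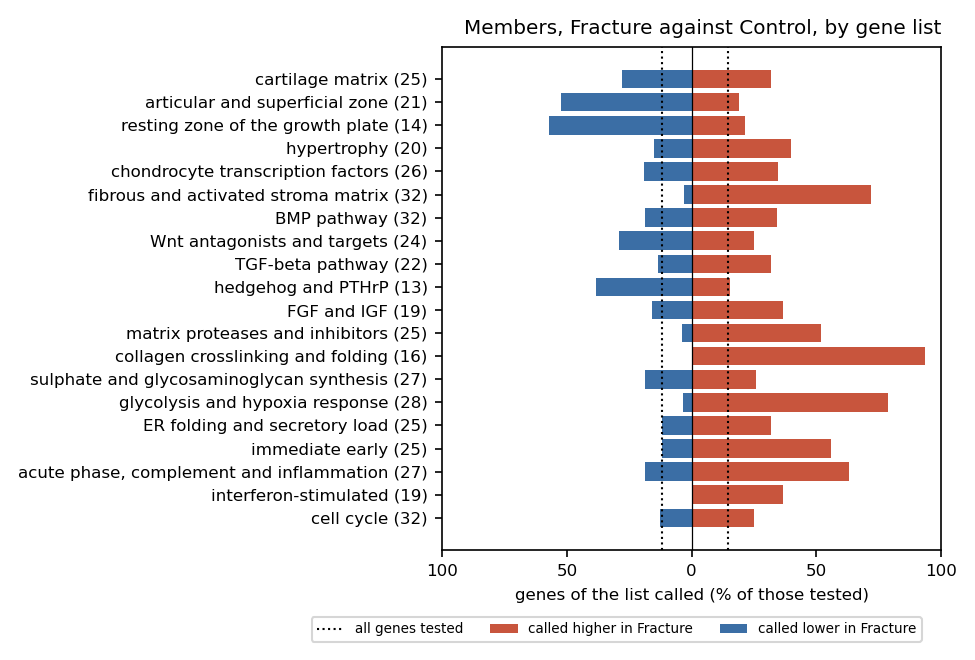
Share (%) of the tested genes of 20 pathway and zone lists that were called higher (right) or lower (left) in Fracture members, with the number tested in parentheses. Dotted lines mark the 14.4% and 11.8% of all genes; collagen crosslinking and folding (15 of 16) and glycolysis and hypoxia response (22 of 28) reach furthest to the right among these 20, and the resting zone (8 of 14) furthest to the left. The callus genes (3 of 3 higher) and the lists of other cell types are not drawn.

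Some of these counts depended on single preparations or libraries. Those of lists not named here, such as hypertrophy, chondrocyte transcription factors and marrow stroma, also moved. Over 12 fits that each left out 1 preparation or 1 library, the cartilage matrix list had 2 to 8 genes higher and 5 to 8 lower, the hedgehog and PTHrP list 0 to 2 and 3 to 6, and the sulphate and glycosaminoglycan list 3 to 8 and 1 to 5. The inflammation list had 11 to 17 higher and 2 to 6 lower, the cell cycle list 3 to 8 and 1 to 5, the endoplasmic reticulum list 5 to 10 and 2 to 4, and the TGF-beta list 6 to 8 and 3 to 7. Collagen crosslinking and folding kept 11 to 15 higher and 0 lower, fibrous stroma matrix 21 to 26 higher and 1 to 2 lower, and glycolysis and hypoxia response 19 to 24 higher and 0 to 1 lower.

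Markers of other cell types were summed in the members to show what moved with these results. Of 10 endothelial genes 3 were called higher and 0 lower, and their sum was 63.0 and 86.6 CPM in Control and 87.3 and 97.4 CPM in Fracture, against 7581 to 9485 CPM in endothelial cells. The 3 called endothelial genes, Cdh5, Emcn and Plvap, all lost their call without the first library of Control 1 (adjusted p = 0.232, 0.318 and 0.168). Of 14 blood genes 4 were higher, all haemoglobin genes, and 6 lower, and the sum was 327 and 445 CPM against 1369 and 785 CPM. Of 10 marrow stroma genes 0 were higher and 7 lower, with a sum of 402 and 278 CPM against 76.5 and 76.1 CPM. Cxcl12, the chemokine of marrow reticular cells, stood at 260 and 170 CPM against 29.1 and 28.9 CPM in the members. Of 10 osteoblast genes 5 were higher and 0 lower, of 9 fibroblast genes 6 and 1, of 7 tendon genes 4 and 1, and of 9 smooth muscle genes 2 and 4. The falls of the contractile genes Myh11 (-2.27) and Tagln (-1.16) were -0.78 and -0.05 without the first library of Control 1, neither called. Without the set-aside members 4 osteoblast genes were higher and 3 lower, and the counts were 7 and 0 for fibroblast, 3 and 2 for tendon, 1 and 4 for smooth muscle and 0 and 5 for marrow stroma genes. Bglap, Bglap2, Ifitm5, Col22a1 and Car3 of the osteoblast list were used to set members aside, so its recount follows in part from that limit. None of these lists of other cell types had a marker at 0 in all 4 preparations, and the part of other cells in the results above was not tested except where values without the set-aside members are given.

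The fracture effect in the members was then compared with that in the other 9666 cells past the cartilage gate, which failed at least 1 of the other limits. That class was made up differently in each group, since 310 of 1450 and 122 of 501 of its Control cells failed the Col10a1 limit against 2603 of 3806 and 2673 of 3909 of its Fracture cells. A change with fracture and a change in make-up cannot be told apart in that class, in the members or in the Serpina1-positive cells below. The test was the class-by-group term in edgeR with the preparation as a block. Of 16004 genes tested, 956 had a larger log2 fold change in the members (5.97%) and 820 a smaller one (5.12%). C1qtnf3 rose more in the members, by 2.26 on the log2 scale (SE 0.08, adjusted p = 3.16e-17), and in the other cells it stood at 131 and 115 CPM in Control and at 720 and 751 CPM in Fracture. The order of the classes turned over, since C1qtnf3 was lower in Control members than in the other cells and higher in Fracture members. Chi3l1 fell more in the members, with a difference of -0.91 (adjusted p = 1.66e-09), and in the other cells it stood at 51.9 and 76.4 CPM against 39.3 and 48.2 CPM. Its fall in the members was not called at a gate of 60 per 10000, as given above. Class differences were not fitted at that gate, so this difference holds for the gate of 40 only. Moxd1 rose less, with a difference of -1.77, which was -1.65 without Control 1. Its Fracture levels were near each other in the classes, so the difference rests on low Control levels, with 9 UMIs in Control 2 members. For 1520401A03Rik the difference of 0.997 did not pass the test (adjusted p = 0.828). For Chrdl2, Sfrp5 and Matn4 the differences of 0.67, -0.39 and -0.25 did not pass the test (adjusted p = 0.575, 0.0564 and 0.125). They were -1.84, -1.02 and -0.69 without Control 1, where those of Sfrp5 and Matn4 were called (adjusted p = 0.0174 and 0.000151). Sfrp5 was also called without Fracture 1 (-0.58, adjusted p = 0.0256) and without the set-aside cells (-0.84, adjusted p = 0.000237), as was Chrdl2 without those cells (2.09, adjusted p = 0.0398). Leaving out 1 library brought a call for Chrdl2 (the first of Control 2, 1.97), Sfrp5 (the second of Control 1, -0.83) and Matn4 (the first of Control 1, -0.39).

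Among called genes with at least 20 CPM in one of the classes on average, the 5 largest differences outside the marker and rule genes belonged to Npy, Ackr3, Ptgs2, Efemp1 and Jam2. Ackr3, a scavenger receptor for Cxcl12, stood at 18.1 and 17.5 CPM in Control members and at 27.4 and 25.4 CPM in Fracture members, while the other gated cells went from 5.95 and 8.33 CPM to 92.8 and 80.0 CPM (difference -3.17, SE 0.20, and -1.78 without the set-aside cells). Jam2, a junction protein, stood at 28.1 and 22.1 CPM against 19.7 and 19.1 CPM in the members and at 12.5 and 11.1 CPM against 72.2 and 72.4 CPM in the other cells. Efemp1, the matrix protein fibulin-3, fell in the members from 59.3 and 70.9 CPM to 8.79 and 8.11 CPM and stood at 19.7 and 11.4 CPM against 20.7 and 18.8 CPM in the other cells. Ptgs2 had a difference of 3.06 (adjusted p = 0.00068), which was larger but not called without Control 1 (9.16, adjusted p = 0.213). It rests on its near absence from Control members, since its Fracture level was lower in members (82.1 and 81.8 CPM) than in the other cells (161 and 160 CPM). The Prg4 difference of -2.51 was -3.91 without the set-aside cells. The Npy difference of -6.22 became 0.15 without the set-aside cells.

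Against the 1809 Serpina1-positive chondrocytes, which met every limit except that they held at least 3 Serpina1 UMIs, the comparison asked how the change with fracture differed from that of cells outside the Serpina1 limit alone. Of 12284 genes tested, 729 had a larger log2 fold change in the members (5.93%) and 757 a smaller one (6.16%). C1qtnf3 rose more in the members, by 3.93 (SE 0.09, adjusted p = 2.01e-12), and stood at 213 and 203 CPM in Control and at 390 and 400 CPM in Fracture in Serpina1-positive cells. Sfrp5 went apart, with 46.4 and 35.0 CPM against 6.46 and 4.42 CPM in Serpina1-positive cells and a difference of 3.54 (adjusted p = 1.33e-06). Chi3l1 and Matn4 had differences of -1.14 and 0.93, both called, and that of Matn4 was not called without Control 1 (0.50) or without Fracture 1 (0.78). For Chi3l1 the limit on the gate given above holds here as well. Chrdl2 stood at 1.07 and 0.410 CPM against 2.94 and 3.49 CPM in Serpina1-positive cells, and its difference of 2.91 (adjusted p = 0.028) was not called without Control 1 (0.32), Fracture 1 (2.66) or Fracture 2 (3.24), nor without 4 of the 8 single libraries, and was 4.53 without the set-aside cells. Moxd1 had a difference of 1.53 (adjusted p = 0.0622), which was called without Fracture 2 (2.44, adjusted p = 0.00246).

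With the same limit of 20 CPM, the 5 largest differences from Serpina1-positive cells belonged to 1520401A03Rik (6.74), Prg4 (-6.27), Ptgs2 (5.34), Slurp1 (-4.95) and Prss34 (-4.74). Those of 1520401A03Rik and Ptgs2 were larger but not called without Control 1 (10.4 and 8.01, adjusted p = 0.145 and 0.369). Cxcl10, an interferon-induced chemokine, had differences of 10.2 and 9.20 in the 2 comparisons but stood at 0 CPM in Control members and at 3.56 and 4.00 CPM in Fracture members, below that limit, so the sizes rest on very low values. The Prg4 level in Serpina1-positive cells varied between preparations, at 112 and 14.5 CPM in Control and 256 and 73.8 CPM in Fracture. Slurp1, a small secreted protein of the Ly6 family, stood at 33.7 and 12.9 CPM against 11.4 and 9.12 CPM in members and at 4.63 and 2.25 CPM against 62.8 and 34.2 CPM in Serpina1-positive cells, and its difference was -3.17 without the set-aside cells. Prss34 is a basophil gene, and its difference was 0.41 without Fracture 2 and -0.30 without the set-aside cells. Cells were set aside by Prss34 itself among other genes, so the second value follows in part from that limit. Both class comparisons share the members' libraries, so they are not independent of each other.

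Members also varied among themselves. With each cell thinned to 5000 UMIs, the variance over the mean across members was high for Mgp, with 424 and 376 in Control and 251 and 224 in Fracture. For Ibsp, bone sialoprotein, it was 224 and 203 in Control and 214 and 189 in Fracture. Few members carried most of it, since the top 5% held 85.0% and 94.5% of its UMIs in Control and 71.0% and 72.9% in Fracture. Which marker genes occurred in the same cells differed between the groups as well. In Control, Panx3 was found in 2.27% of the 44 members with an Sfrp5 UMI and in 47.5% of the members without one in preparation 1, and in 0 of 9 against 56.0% in preparation 2. In Fracture the shares were 49.0% of 490 members against 57%, and 49.5% of 457 against 55.0%. Chi3l1 was found in 75% and 88.9% of Control members with Sfrp5 and in 31.0% and 36.0% of those without, whereas in Fracture the shares were 24.5% and 25.6% with Sfrp5 and 24.3% and 23.3% without. Set-aside members held 40.1% and 34.2% of the Sfrp5 UMIs in Control, but without them Chi3l1 was still found in 77.4% and 85.7% of the 31 and 7 Control members with Sfrp5 against 32.7% and 34.1% of those without, and Panx3 in 3.23% and 0% against 48.3% and 58.5%.

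Chrdl2 was found more often in Fracture members with an Sfrp5 UMI (29.4% and 28.0%) than in those without (13.4% and 12.4%). Matn4 was likewise found in 84.9% and 83.4% of Fracture members with Sfrp5 and in 69.4% and 68.0% of those without. Members share their library and their depth, so these shares are descriptions across cells and carry no test, and the Control shares rest on 44 and 9 cells with Sfrp5.

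**Figure D4:**
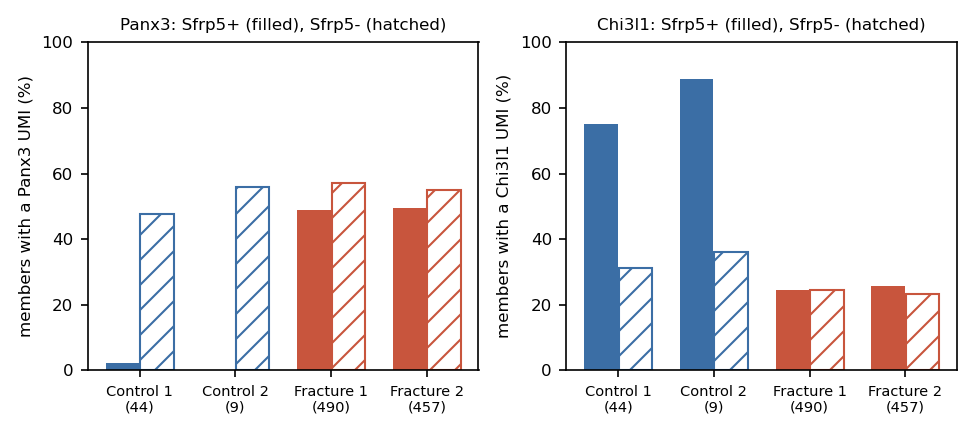
Share (%) of members with a Panx3 UMI (left) and with a Chi3l1 UMI (right) among members with an Sfrp5 UMI (filled) and without one (hatched), each cell thinned to 5000 UMIs. The number of members with Sfrp5 is in parentheses and the Panx3 bars of a pair lie at 2.27% and 47.5% in Control 1 but at 49.0% and 57% in Fracture 1.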

How the data were processed

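Stromal cells of Control and Fracture femurs were measured with Chromium 3′ V3 libraries on a NextSeq500. Per the file headers the tables give a count of UMIs for each gene in each barcode, and the authors mapped the reads to the mm10 genome and scaled nothing before deposit. The submitters' processing notes list bcl2fastq 2.19.1.403, UMI-tools 1.0.0, STAR 2.7.3a, Subread and featureCounts 1.6.4 without their order, while the published methods name STARsolo and EmptyDrops. The step that selected the deposited barcodes is not given in the sources used here. Reads of overlapping or near-identical genes can be split or lost by such counting, and a UMI at the 3′ end is not a whole transcript.

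Barcodes with 500 to 6000 genes and at most 25% mitochondrial UMIs were kept. Libraries of a preparation differed beyond sampling noise and were summed (n = 2 per group). The labels do not say how many animals a preparation holds, so p-values measure the spread between preparations. The effect of fracture was tested with the quasi-likelihood method of edgeR 4.0.16 (R 4.3.3, limma 3.58.1) with TMM scaling, filterByExpr and Benjamini-Hochberg adjustment over all genes tested, with calls at an adjusted p under 0.05. The fracture effect in members was set against that in other classes through the interaction of class and group, blocked by preparation. For shares of cells an exact permutation test, two-sided, was taken from scipy 1.17.1. DESeq2 1.42.0, RLE scaling, no filter on low counts, libraries as samples, other limits of the rule, doublet calls left out (scrublet in scanpy 1.11.5, expected 6%; doublets were kept otherwise) and each preparation left out were tried as alternatives. The scripts were tested on simulated data. Python 3.11.15, numpy 2.4.6, pandas 2.3.3 and matplotlib 3.10.9 were also used.

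The members, gene lists and tests were chosen with earlier results of these data known. Members of low Col2a1 or with RNA of other cell types were left out only in an alternative added after the data were seen, as was each of the 8 libraries in turn. Their limits per 10000 UMIs were 5 for platelet, 10 for endothelial, 20 for basophil, 50 for haemoglobin and 50 for osteoblast genes. The platelet genes were Pf4, Itga2b, Ppbp, Itgb3 and Vwf, and the basophil genes Mcpt8 and Prss34. The endothelial genes were Cdh5, Pecam1, Emcn, Kdr and Egfl7, and the osteoblast genes Bglap, Bglap2, Ifitm5, Col22a1 and Car3. Set-aside members are rich in these genes by definition. Endothelial cells held at least 10 per 10000 of endothelial genes and lay under the cartilage gate, which leaves out doublets rich in cartilage RNA. Named genes were the markers, the callus genes, the 12 largest rises and falls among called genes with a mean of at least 20 CPM and no overlap between groups, leaving out rule genes, haemoglobin and mitochondrial genes and lists of other cell types, the most changed called genes of each list, and the 5 largest called differences between classes with at least 20 CPM in one class. Others were chosen after their values were seen, among them Panx3, Pth1r, Sox9, Col2a1, Gapdh and Ldha. Gene positions came from GENCODE M21 (GRCm38), which held 127 of 130 symbols looked up. Promoters came from RefSeq (GRCm38.p6), which held both genes shown.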

Additional observations from a re-analysis of the deposited data

Results flagged for a closer look

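Of 20 sets of 4 libraries tested for a value far from the others, 4 were noted, and chance gives about 1 in 20. Chrdl2 was at 15.2 CPM in the first library of Control 2, from few UMIs. Chi3l1 was at 240.9 CPM in the second library of Control 1, below the other Control libraries. Moxd1 was at 11.6 CPM in the first library of Control 1, and 1520401A03Rik at 0.364 CPM in the second, which is its only Control UMI.

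The change with fracture was followed for 13 genes (the markers, callus genes, Prg4 and the largest differences at 20 CPM or more) between members and the other cells past the cartilage gate, and 9 of them differed. Their differences in log2 fold change, members minus other cells, were 2.26 for C1qtnf3 and 3.06 for Ptgs2 on the higher side. On the lower side they were -0.91 for Chi3l1, -1.77 for Moxd1, -2.51 for Prg4, -6.22 for Npy, -3.17 for Ackr3, -3.04 for Efemp1 and -3.02 for Jam2. Against Serpina1-positive chondrocytes 10 of the 11 genes followed in the same way differed. Other genes named above are not in these counts. The differences were 2.91 for Chrdl2, 3.54 for Sfrp5, 0.93 for Matn4, 3.93 for C1qtnf3, 6.74 for 1520401A03Rik and 5.34 for Ptgs2. They were -1.14 for Chi3l1, -6.27 for Prg4, -4.95 for Slurp1 and -4.74 for Prss34. The Control counts of Ptgs2 and 1520401A03Rik were 2 UMIs and 1 UMI in the members, so the sizes of their differences rest on very low values. In each comparison the 5 largest differences were picked from called genes, so that they differed was fixed in advance. Of all genes 5.97% had a larger and 5.12% a smaller change in members than in the other cells. Against Serpina1-positive cells these shares were 5.93% and 6.16%, and nothing is read from the counts of 9 and 10.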

How the results depend on the processing

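Both shares of members stayed higher in Fracture under every alternative tried, by 14.2 to 17.0 percentage points of all cells. Counts of called genes moved most with the tool and the preparations. DESeq2 called 1041 genes higher and 733 lower, and thinning each cell to 5000 UMIs before the rule left 1003 lower. With 1 preparation left out, where the lone one is assumed to vary like the other group, 1047 to 2270 genes were higher and 687 to 1965 lower, the lowest counts without Fracture 1 and without Control 1. The corresponding ranges for the differences were 355 to 905 higher and 260 to 831 lower against the other gated cells, and 280 to 816 and 318 to 753 against Serpina1-positive cells. The preparation numbers are not paired by the labels (deviations of Control 1 and Fracture 1 correlated at 0.130 over 2539 genes), and a replicate block gave 1833 higher and 1423 lower.

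Among single genes, Npy (2.58) and Fgf18 (7.21) reversed without the set-aside members, Fgf18 at a gate of 60 (0.80), and Cxcl10 (-0.41) when cells were thinned first. The Npy difference became 0.15 without those cells. Left-out preparations and libraries moved the Chrdl2 difference from the other gated cells between -1.84 and 1.97 (the latter without the first library of Control 2) and the Prss34 difference from Serpina1-positive cells between -7.04 and 0.41. Sfrp5 was not called by DESeq2 (0.55) or with Serpina1 at 0 UMIs (0.37). Except where values are given, the cause was not tested. The depth limits Chrdl2, Ptgs2 and other genes of few Control UMIs, and Control 2 holds 78 members.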
